A study of Mus musculus with 6 samples.

Results

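The genes described here encode the nuclear subunits of 4 of the machines of the inner mitochondrial membrane, read out in alveolar macrophages of C57BL/6 mice. They were chosen by symbol among the protein-coding genes of the expression table: symbols beginning Nduf for complex I, Uqcr or Cyc1 for complex III, Cox4 to Cox8 for complex IV and Atp5 for complex V. Of the 22962 genes in the table, 86 matched, and 85 of them reached a normalized read count of 10 in at least 3 libraries: 45 of complex I, 9 of complex III, 14 of complex IV and 17 of complex V. The gene left out was Cox4i2. A symbol is not proof of a subunit: 8 of the 45 complex I symbols (Ndufaf1 to Ndufaf8) name assembly factors that are not part of the finished complex. Ndufa4 is now known as a subunit of complex IV. Atp5s is counted with complex V by its symbol alone. Cox7a2l is counted with complex IV, although it is described as a factor for supercomplexes.

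Mice of both groups were C57BL/6, with no allele or agent named other than the instillation. One group (3 libraries, saline 1, 2 and 3) received saline through the trachea, and the other (3 libraries, bleomycin 1, 2 and 5) received bleomycin, a DNA-breaking drug used to produce lung injury and fibrosis in mice, 2 weeks before lavage. Neither the age of the mice nor any pooling of animals is given in the labels used here. All lavage cells were plated, and those that still adhered after washing were lysed for RNA, so the libraries hold every adherent lavage cell and not a sorted population. Nothing states that the libraries of a group came from separate mice, so a p-value here may reflect technical spread alone.

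Complex I (NADH dehydrogenase) and complex III (cytochrome bc1) pass electrons from NADH and ubiquinol to cytochrome c, and complex IV (cytochrome c oxidase) passes them to oxygen. All of these pump protons, and complex V (ATP synthase) uses the gradient to make ATP. Each holds core subunits that carry the chemistry and a shell of small accessory subunits, and a few core subunits come from the mitochondrial genome. Alveolar macrophages of a healthy lung are known to rely on fatty acid oxidation and oxidative phosphorylation.

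In these libraries the 85 genes showed no group difference that passed the test, and their largest common movement was between libraries of the same group. With limma, 0 genes were higher and 0 lower after bleomycin at an adjusted p under 0.05, whereas 13.7% of the 13512 genes tested were called, 9.76% higher and 3.9% lower. The median log2 fold change was -0.02 over the 85 genes, of which 47 were negative, and -0.01 over all genes tested, of which 51.3% were negative. In bleomycin 1 the median of the 85 genes lay 0.38 above the saline mean on the log2 scale, and in bleomycin 2 and 5 it lay at -0.21 and -0.16. At an unadjusted p under 0.05 limma had 3 of the 85 genes, Uqcrc2, Atp5b and Ndufa10, all with lower values after bleomycin (25.9% of all tested genes had such a p, 10.3% with lower values). In bulk RNA fewer cells of a type and less RNA per cell cannot be told apart.

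The nuclear genes of the chain are known as targets of the transcription factors NRF1 and of the ETS family, and cyclic AMP response elements (CRE) have been described at some of them. The 250 bases before the annotated start site were therefore read for 69 of the 85 genes that have an entry in the RefSeq promoter table (GRCm38.p6). Letters were searched on both strands, and a match on the opposite strand appears in the printed sequences as its reverse complement. The NRF1 spelling (GCGC and TGCGC with 1 base of any kind between them) occurred before 12 of the 69 genes (17.4%) and 4.23% of the 27025 genes in the table. The ETS spelling CCGGAAG occurred before 13 (18.8%, against 7.83% of all genes), and the CRE TGACGTCA before 4 (5.8%, against 1.77%). These promoters were richer in G and C than those of the table (median 56.4% against 52.4%), and the part of base composition in these shares was not tested. The 3 spellings are those kept from 13 that were looked at in 2 window sizes, 250 and 300 bases, and the choice was made after the matches were seen. At 250 bases 12 of the 13 spellings had a higher share before the 69 genes than before all genes, so the excess is not particular to these 3. The CRE lay before Ndufa10, Ndufa11, Ndufb2 and Uqcrfs1. Shown are 30 bases each, in the direction of transcription, with the matched letters in capitals. The first 3 carry the CRE, which reads the same on both strands, and include 2 genes whose values are described below (Ndufa10 and Uqcrfs1), the next 3 carry the NRF1 spelling (in Ndufs5 it fits on the strand opposite to the one printed) and the last 3 the ETS spelling.
Ndufa10: acactcagtggTGACGTCAtggcagcgcgc
Uqcrfs1: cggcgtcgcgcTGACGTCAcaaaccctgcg
Ndufa11: tttacctttccTGACGTCAcgggcgtctct
Ndufs5: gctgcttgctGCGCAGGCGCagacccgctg
Atp5k: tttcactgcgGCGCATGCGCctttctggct
Ndufaf4: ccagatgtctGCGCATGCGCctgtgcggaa
Ndufs3: cccgcgtccgcCCGGAAGaagagtcactgc
Atp5j: agctgagggacCCGGAAGcacttaccctcc
Uqcr11: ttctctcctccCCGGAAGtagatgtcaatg
The Ndufa10 stretch is chr1:92473807-92473836 on the minus strand, with its CRE 67 to 60 bases before the start site. The Uqcrfs1 stretch is chr13:30545327-30545356 on the minus strand, with the CRE 29 to 22 bases before the start site. Start sites here are those of RefSeq, and the stretches of Ndufa10, Uqcrfs1, Ndufs3 and Atp5j lie inside the gene bounds of the GENCODE annotation used for the gene positions below, with that of Atp5k partly inside. The Ndufa11 stretch is chr17:56717593-56717622 on the plus strand. The Ndufs5, Atp5k and Ndufaf4 stretches are chr4:123718265-123718294 (minus), chr5:108434430-108434459 (minus) and chr4:24897960-24897989 (plus). The Ndufs3, Atp5j and Uqcr11 stretches are chr2:90904730-90904759, chr16:84835019-84835048 and chr10:80406869-80406898, all on the minus strand. A match is a description of the letters and no evidence of binding. The 12 genes with the NRF1 spelling had log2 fold changes of -0.15 to 0.28 (median -0.04), the 13 with the ETS spelling -0.42 to 0.19 (median 0.02), and the 4 with the CRE -0.28 to -0.01.

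Complex III held the gene with the smallest p of the 85. Uqcrc2 (chr7:120635176-120659524 in GRCm38, as are all gene positions here), which encodes core protein 2, a structural subunit on the matrix side, had 2941, 3065 and 3007 normalized read counts in saline 1, 2 and 3 and 2488, 2326 and 2358 in bleomycin 1, 2 and 5. The groups did not overlap, and both were narrow: the lowest saline library stood above the highest bleomycin library by several times the spread within a group. The means were 3004 ± 62.2 and 2391 ± 85.9 (SD, n = 3 each), 1.26-fold lower after bleomycin. The log2 fold change was -0.33 (SE 0.10), with an adjusted p of 0.061 by limma, which misses the threshold, and 0.024 by DESeq2 on the recovered reads, which passes it. DESeq2 called 1 of the 85 genes lower, Uqcrc2, and 0 higher, where it called 17.1% of all tested genes, 11.4% higher and 5.69% lower. edgeR called 0 of the 85 genes, where it called 13.5% of all tested genes, 9.64% higher and 3.83% lower. Its adjusted p for Uqcrc2 was 0.068. At an unadjusted p under 0.05 edgeR had 2 of the 85 genes and 3444 of the 13512 tested genes. Over all alternative fits the adjusted p of Uqcrc2 ranged from 0.024 to 0.732, and from 0.057 to 0.282 with 1 library left out. Exons of Uqcrc2 overlap those of Pdzd9 on the opposite strand, and with the strand setting of the counting not given their reads cannot be told apart.

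The other core subunits of complex III had lower means too, without passing the test. Uqcrfs1 (chr13:30540308-30545362), the Rieske iron-sulphur protein that takes electrons from ubiquinol, had 2368, 2784 and 2945 normalized read counts in saline 1, 2 and 3 and 2954, 1958 and 1870 in bleomycin 1, 2 and 5. Bleomycin 1 lay at the top of the saline range and the remaining bleomycin libraries below it, so the groups overlapped (log2 fold change -0.28, SE 0.18, adjusted p 0.407 by limma). Cyc1, cytochrome c1, which hands electrons on to cytochrome c, had 2459 ± 294 and 2353 ± 352 normalized read counts (SD, n = 3 each; log2 fold change -0.07, adjusted p 0.83 by limma). Over Uqcrc1, Uqcrc2, Uqcrfs1 and Cyc1 the median log2 fold change was -0.19 and 4 of 4 values were negative. The 5 small subunits (Uqcrb, Uqcrh, Uqcrq, Uqcr10 and Uqcr11), which surround the core, had values of 0.06 to 0.11, 5 of 5 positive. The positive values of the small subunits were not kept without bleomycin 1 or without saline 1. In 9 of 9 genes of the complex bleomycin 1 was the highest bleomycin library and saline 1 the lowest saline library. Leaving out either therefore lowers every value, and the values of these 2 fits are a description only. Without bleomycin 1 the small subunits lay at -0.21 to -0.13, without saline 1 at -0.15 to -0.06, and in both fits 9 of 9 genes of the complex were negative. Without bleomycin 1 Uqcrfs1 was at -0.49, below the range of the small subunits, and Cyc1 at -0.18, within it. With a correction for exon length and all libraries kept, the medians were -0.17 for the core and 0.10 for the small subunits, still of opposite sign. With the replicate number as a block, which leaves saline 3 and bleomycin 5 without a partner, 2 of the 4 core values were negative.

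**Figure D1:**
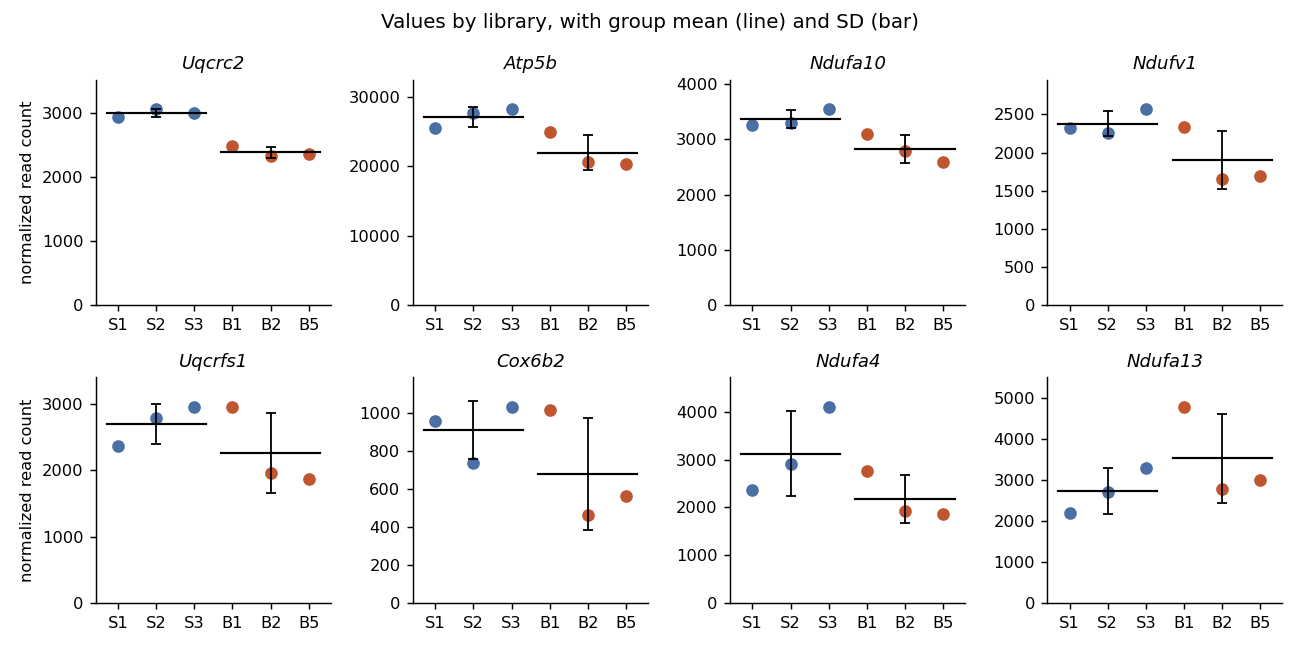
Normalized read counts (y axis, from 0) of 8 genes in each library (S1 to S3 saline, B1, B2 and B5 bleomycin); points are libraries, lines group means and bars the SD (n = 3). The groups do not overlap in Uqcrc2, Atp5b and Ndufa10, and in Ndufv1, Uqcrfs1 and Cox6b2 the bleomycin 1 point lies within the saline range or just above it.

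In complex V the catalytic subunit stood apart from its partner in the same head. Atp5b (chr10:128083273-128090391), the beta subunit that carries the catalytic sites, had 25548, 27677 and 28239 normalized read counts in saline 1, 2 and 3 and 24902, 20673 and 20380 in bleomycin 1, 2 and 5. The groups did not overlap, although saline 1 and bleomycin 1 lay close together. The means were 27154 ± 1420 and 21985 ± 2530 (SD, n = 3 each), a 1.24-fold lower level after bleomycin, with a log2 fold change of -0.31 (SE 0.12) and an adjusted p of 0.153 by limma. Atp5a1, the alpha subunit that alternates with beta in the ring, had 19832, 19476 and 20432 normalized read counts in saline and 20370, 18279 and 18590 in bleomycin 1, 2 and 5. Its groups overlapped, and its log2 fold change was -0.06 (SE 0.10, adjusted p 0.777 by limma). The difference between the 2 genes was not tested.

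The remaining genes with Atp5 symbols lay on both sides of 0, and none passed the test. Of the 5 genes of the F1 head and stalk 4 had negative values, and Atp5e, the smallest, had 0.19 (SE 0.26, adjusted p 0.735 by limma), which became -0.10 without bleomycin 1. The 3 genes of the proton-carrying c-ring encode the same mature protein behind different targeting sequences. Their log2 fold changes were -0.11 for Atp5g1, -0.04 for Atp5g2 and -0.26 for Atp5g3, with adjusted p-values of 0.771, 0.923 and 0.475 by limma, and the first 2 changed sign without saline 3. Per kilobase of transcript Atp5g3 made up 71.4% ± 2.0 of the sum of Atp5g2 and Atp5g3 in saline and 68.3% ± 1.6 after bleomycin (SD, n = 3 each). Atp5j2, the f subunit of the membrane part, had the highest value of the complex, 0.26 (SE 0.20, adjusted p 0.49 by limma). The 4 genes of the peripheral stalk, which holds the head still, ranged from -0.04 to 0.09.

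Complex I, the largest of the set, had its lowest values in Ndufa4, in assembly factors and in Ndufv1. Ndufa10 (chr1:92439010-92473860), an accessory subunit of the membrane arm, had 3254, 3302 and 3550 normalized read counts in saline 1, 2 and 3 and 3101, 2788 and 2599 in bleomycin 1, 2 and 5. Its groups did not overlap, with bleomycin 1 just under saline 1. The means were 3369 ± 158 and 2829 ± 254 (SD, n = 3 each), 1.19-fold lower, with a log2 fold change of -0.25 (SE 0.11) and an adjusted p of 0.189 by limma. Uqcrc2, Atp5b and Ndufa10 were the 3 of the 85 genes whose groups did not overlap with bleomycin lower, where 13.6% of all tested genes did so. In the other direction there were 0 of 85, where 17.2% of all tested genes did so (30.8% in either direction).

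Ndufv1 (chr19:4007384-4012806), the flavoprotein where NADH is oxidised, had 2322, 2252 and 2570 normalized read counts in saline and 2342, 1660 and 1698 in bleomycin 1, 2 and 5. Bleomycin 1 lay within the saline range and the other two libraries below it (log2 fold change -0.34, SE 0.15, adjusted p 0.2 by limma). Ndufs1, which carries iron-sulphur clusters of the same module, had 2156 ± 131 and 1920 ± 241 normalized read counts (SD, n = 3 each; log2 fold change -0.17, adjusted p 0.455 by limma).

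Ndufa4 had the lowest log2 fold change of the 85 genes, -0.50 (SE 0.22, adjusted p 0.201 by limma). Its values were 2360, 2910 and 4109 normalized read counts in saline 1, 2 and 3 and 2766, 1920 and 1860 in bleomycin 1, 2 and 5. The groups overlapped, and saline 3 stood far above its group: without it the log2 fold change was -0.29. At the other end stood Ndufa13, an accessory subunit of the membrane arm also known as GRIM-19, with 2182, 2693 and 3288 normalized read counts in saline and 4774, 2784 and 3003 in bleomycin. Its log2 fold change of 0.35 (SE 0.22, adjusted p 0.396 by limma) rested largely on bleomycin 1 and was 0.11 without it. Ndufs5, another membrane arm subunit, followed with 0.28 (SE 0.19, adjusted p 0.428 by limma).

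The assembly factors had the most uniform sign within complex I. All 8 had negative log2 fold changes, from -0.42 to -0.04 with a median of -0.17, and 0 of 8 passed the test. Among all tested genes 51.3% were negative and 13.7% were called, and at that share 0 calls in 8 genes says little. Ndufaf1, a chaperone of the membrane arm, had 404, 440.0 and 398 normalized read counts in saline and 410, 301 and 239 in bleomycin 1, 2 and 5 (log2 fold change -0.42, SE 0.21, adjusted p 0.25 by limma). Bleomycin 1 again lay inside the saline range. With the replicate number as a block 4 of the 8 values were negative, with the libraries scaled to their chain median 7 of 8, and without saline 2, saline 3, bleomycin 2 or bleomycin 5 also 7 of 8. The 19 accessory subunits of the membrane arm had a median of 0.07 with 8 negative, which became -0.13 with 15 negative without bleomycin 1.

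Complex IV held no gene whose groups did not overlap. Cox6b2 (chr7:4751792-4753094), the form of subunit 6b known from testis, had 957, 734 and 1030 normalized read counts in saline and 1012, 459 and 561 in bleomycin 1, 2 and 5 (log2 fold change -0.49, SE 0.28, adjusted p 0.328 by limma). Bleomycin 1 lay in the saline range and both other bleomycin libraries under it. Cox4i1, a regulatory subunit present in most tissues, had 12097 ± 1752 and 13652 ± 4208 normalized read counts (SD, n = 3 each). Bleomycin 1 stood far above the rest at 18499, and the next highest library was saline 3 at 13857. Its log2 fold change was 0.14 (SE 0.21, adjusted p 0.746 by limma) and -0.10 without bleomycin 1. Cox6c had the highest value of the complex, 0.24 (SE 0.22, adjusted p 0.578 by limma), and was at -0.0044 without bleomycin 1.

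**Figure D2:**
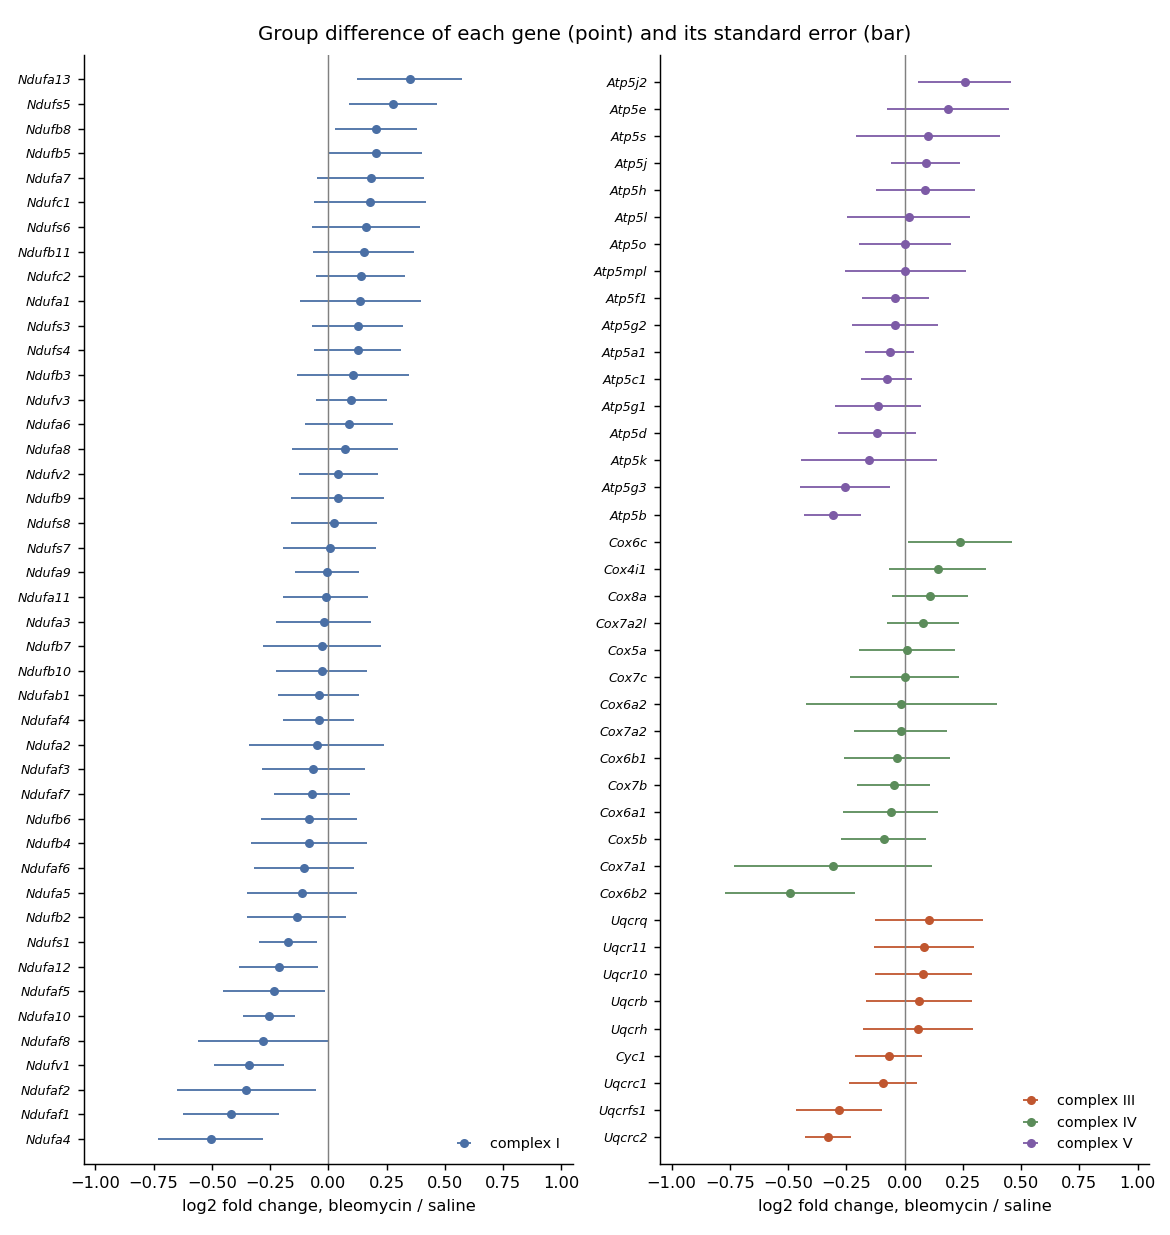
Log2 fold change of bleomycin over saline (x axis) of 84 of the 85 genes, coloured by complex, with the standard error of the limma fit as a bar; genes are sorted within a complex. Values run from -0.50 (Ndufa4) to 0.35 (Ndufa13), and 0 of 85 passed the adjusted threshold.

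Several subunits of complex IV exist as paired forms, one widespread and one typical of heart and skeletal muscle, lung or testis. Their levels were compared per kilobase of the main annotated transcript. Cox4i1 had 15813 ± 2290 normalized read counts per kilobase in saline, and Cox4i2, the form described in lung and in low oxygen, had 6.29 ± 4.5 (SD, n = 3 each). Cox4i2 was thus 0.04% of the pair in saline and 0.07% after bleomycin, on values of 1 to 12 normalized read counts per library. Cox6a2, a muscle form, was 0.4% ± 0.26 of its pair in saline and 0.37% ± 0.11 after bleomycin, and Cox7a1, also a muscle form, 5.97% ± 1.8 and 4.85% ± 1.2 (SD, n = 3 each). The testis form Cox6b2 was 14.5% ± 3.2 of the sum of Cox6b1 and Cox6b2 in saline and 10.9% ± 1.5 after bleomycin, and the library values overlapped: 18.2%, 12.5% and 12.9% in saline and 12.6%, 9.97% and 10.2% in bleomycin 1, 2 and 5. The widespread forms Cox6a1, Cox6b1 and Cox7a2 had log2 fold changes of -0.06, -0.03 and -0.02, and Cox5a and Cox5b, which are separate subunits, 0.01 and -0.09, with adjusted p-values of 0.818 to 0.985 by limma for these 5 genes. Cox7a2l, described as a factor for supercomplexes of III and IV, had 0.08 and Cox8a 0.11 (adjusted p 0.811 and 0.75 by limma). Whether Cox7a2l has this role in C57BL/6 mice was not tested here.

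The common pattern of the 85 genes ran between libraries and not between groups. Expressed as a deviation from the saline mean of each gene, on the log2 scale, the median was -0.25 in saline 1, 0.01 in saline 2, 0.23 in saline 3, 0.38 in bleomycin 1, -0.21 in bleomycin 2 and -0.16 in bleomycin 5. The 4 complexes gave nearly the same numbers. In bleomycin 1 they were 0.38 for complex I, 0.45 for III, 0.38 for IV and 0.31 for V, in bleomycin 2 -0.18, -0.22, -0.30 and -0.21, and in saline 1 -0.22, -0.26, -0.28 and -0.26. Over all tested genes the medians lay between 0.00 and 0.02 in every library.

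Counted by gene, bleomycin 1 was the highest of the bleomycin libraries in 83 of 85 genes, where it was in 38.8% of all tested genes. It was the highest of all 6 libraries in 62 of 85 (17.5% of all tested genes). Saline 1 was the lowest of the saline libraries in 75 of 85 (33.9% of all tested genes). Against the saline mean, 8 of the 85 genes were lower in bleomycin 1, 76 in bleomycin 2 and 75 in bleomycin 5, where 48.3%, 49.9% and 49.8% of all tested genes were. Summed, the 85 genes took 0.724%, 0.809% and 0.899% of all normalized counts in saline 1, 2 and 3 and 0.932%, 0.652% and 0.669% in bleomycin 1, 2 and 5.

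**Figure D3:**
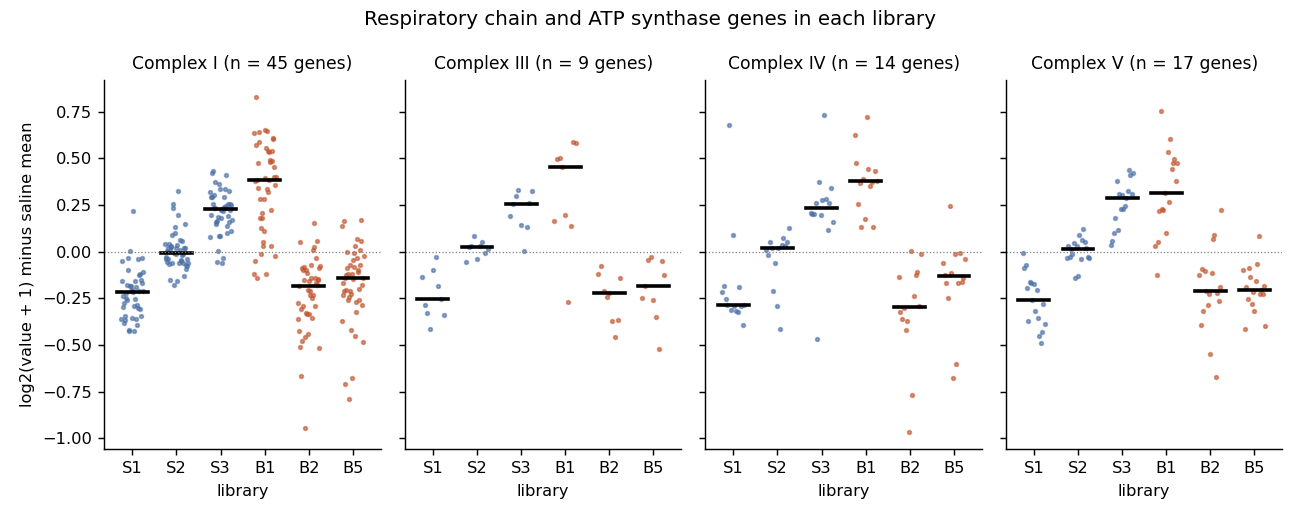
Deviation of log2(value + 1) from the saline mean of the same gene (y axis) in each library (x axis), 1 point per gene and a bar at the median, by complex. In each of the 4 complexes the median is lowest among saline libraries in saline 1 and highest of all in bleomycin 1.

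The spread within a group was larger than the difference between groups for most of these genes. The median SD over the 3 saline libraries was 0.26 and over the 3 bleomycin libraries 0.34 on the log2 scale, against 0.23 and 0.21 for all tested genes. The group difference was smaller than both SDs in 69 of 85 genes (81.2%), where this held for 35.1% of all tested genes. Uqcrc2 had an SD of 0.03 in saline and 0.05 in bleomycin, Atp5a1 0.03 and 0.08, and Ndufa10 0.07 and 0.13. At the wide end Cox7a1 had 0.64 and 0.66, on normalized read counts of 41 to 117 per library, and Atp5k, a small subunit of the ATP synthase membrane part, 0.40 and 0.56.

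The spread went with transcript length. Across the 85 genes, which share the same 6 libraries and are not independent, the SD correlated with the log10 length of the main transcript with a Spearman rho of -0.63 in saline and -0.64 in bleomycin (Pearson r -0.61 and -0.64), and the SD in saline with that in bleomycin with a rho of 0.61. Respiratory chain transcripts are short: 55 of the 85 genes fell among the 2699 shortest tested genes by exon length, up to 2069 bases. The 2699 genes moved the same way with smaller values, with medians of -0.16, 0.03, 0.16, 0.24, -0.09 and -0.09 in saline 1, 2 and 3 and bleomycin 1, 2 and 5, and the 55 genes among them with -0.29, 0.00, 0.25, 0.41, -0.25 and -0.16. After each library's trend with exon length was removed, the median deviations of the 85 genes were -0.12, 0.00, 0.12, 0.19, -0.09 and -0.06. With this correction their median SDs were 0.15 in saline and 0.19 in bleomycin, against 0.20 and 0.17 over all genes. In that fit 1 of the 85 genes was called lower, Uqcrc2 (adjusted p 0.042 by limma), and 0 higher, where 16.4% of all genes were called, 11.3% higher and 5.08% lower. The part of length, fragment selection or RNA quality in the library pattern was not tested beyond this correction.

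**Figure D4:**
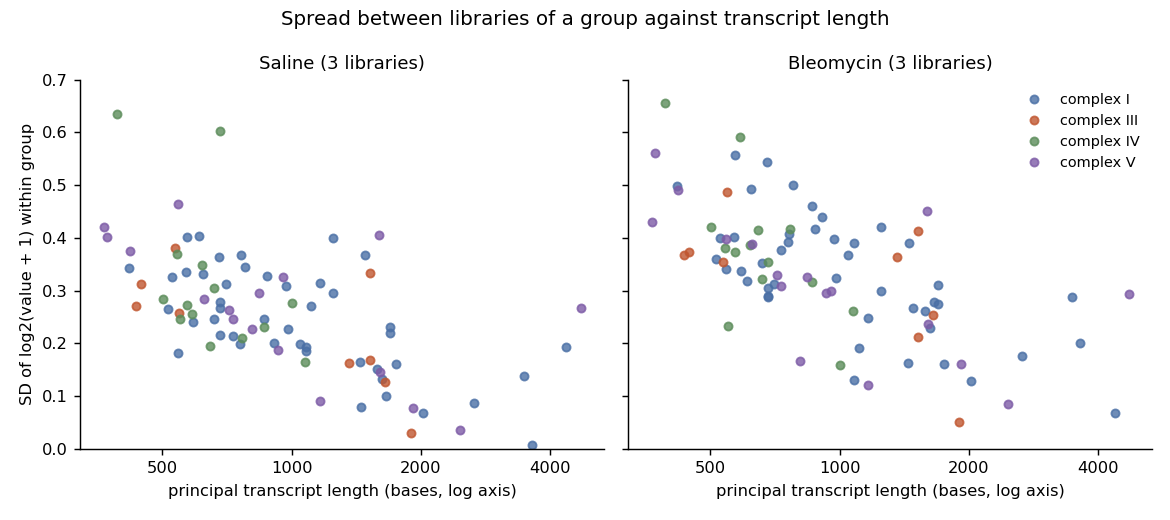
SD of log2(value + 1) over the 3 libraries of a group (y axis) against the length of the main transcript in bases (x axis, log scale), 1 point per gene coloured by complex, for saline (left) and bleomycin (right). Short transcripts spread more in both groups, with a Spearman rho of -0.63 in saline and -0.64 in bleomycin over 85 genes.

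The ribosomal protein genes were likewise highest in bleomycin 1 and next in saline 3, but the order of their lower libraries differed from that of the chain genes. The 76 genes of cytosolic ribosomal proteins had medians of -0.32, 0.07, 0.25, 0.27, -0.38 and -0.32 in the same order of libraries, and the 76 genes of mitochondrial ribosomal proteins -0.20, 0.06, 0.15, 0.18, -0.27 and -0.26. Both sets were lowest in bleomycin 2, where the chain genes were lowest in saline 1. Their median log2 fold changes were -0.14 and -0.11, with 67 and 61 of 76 negative, where the chain genes had -0.02 and 47 of 85. Rpl23a and Rpl5 had the smallest p-values of the cytosolic set, with log2 fold changes of -0.60 and -0.41 (adjusted p 0.17 and 0.176 by limma). Of its 76 genes 0 were called, where 13.7% of all tested genes were. The tested genes of the mitochondrial genome, which encode the partner subunits of the same complexes, were not highest in bleomycin 1. Their medians over 10 genes were 0.03, -0.14, 0.12, -0.37, 0.38 and 0.17, lowest in bleomycin 1. mt-Co1, the catalytic subunit of complex IV, had 203673 normalized read counts in bleomycin 1, 388989 and 360098 in bleomycin 2 and 5 and 241173 to 292352 in saline. The nuclear Cox4i1 of the same complex was highest in bleomycin 1. The smallest p-values of this list were those of mt-Nd6, with a log2 fold change of 0.28 (adjusted p 0.349 by limma), and mt-Co3, whose 1.62 (adjusted p 0.405 by limma) rests on 469 normalized read counts in bleomycin 2 against 16 to 24 in the other libraries. mt-Nd1, mt-Cytb and mt-Co1 had log2 fold changes of 0.07, -0.06 and 0.21 (adjusted p 0.871, 0.918 and 0.686 by limma), so these too showed no group difference that passed the test.

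**Figure D5:**
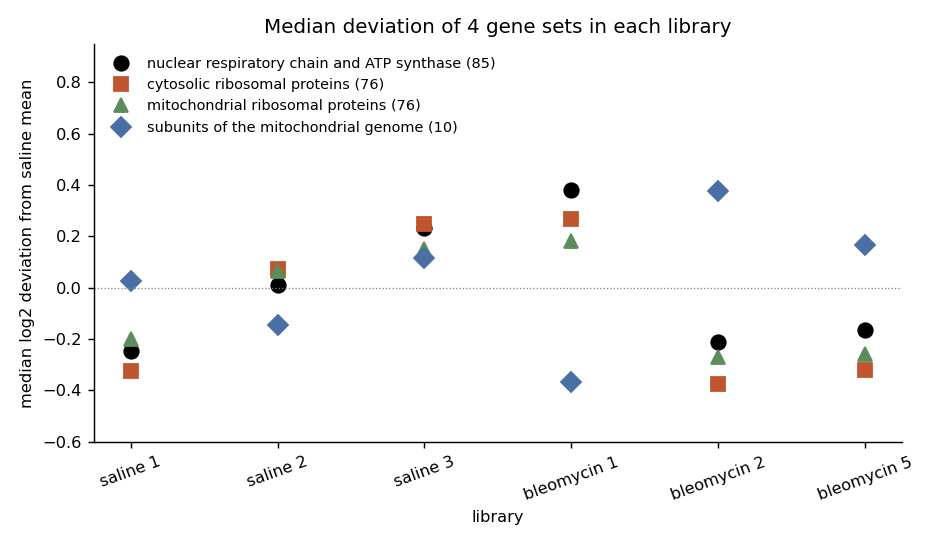
Median log2 deviation from the saline mean (y axis) of 4 gene sets in each library (x axis), 1 marker per set and library. The nuclear chain genes and both ribosomal sets are highest in bleomycin 1 and next in saline 3, and the 10 genes of the mitochondrial genome are lowest there, at -0.37.

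The cell make-up of the libraries differed by group, and its part in the values above was not tested. Among all tested genes 13.7% were called, 9.76% higher and 3.9% lower, and the marker counts below stand beside these shares. Of 12 markers of alveolar macrophages 7 were called lower after bleomycin and 0 higher, and 10 of the 12 log2 fold changes were negative. For monocytes and monocyte-derived macrophages 10 of 10 markers were called higher. Their summed normalized read counts were 2862 to 3510 in saline and 136536, 230089 and 255101 in bleomycin 1, 2 and 5. Siglecf, a lectin and 1 of the 12 alveolar macrophage markers, was lower at 7228 to 8182 in the bleomycin libraries against 12651 to 16187 in saline. The log2 fold changes of the 12 ran from -2.60 to 0.20, so Siglecf does not stand for the list. T cell markers, 7 of 7 called higher, summed to 24 to 40 in saline and to 199, 559 and 677 in bleomycin 1, 2 and 5, and the 5 B cell markers, of which 2 reached the filter and 2 were called higher, to 16 to 21 and to 84, 1002 and 649. Bleomycin 1, which was highest in the chain genes, was lowest of its group in these 3 sums, and also in those of natural killer cells (48, 81 and 104 in bleomycin 1, 2 and 5) and dendritic cells (989, 2048 and 2126). It was highest of its group in the sums of alveolar macrophage markers (500692, 419315 and 379926), fibroblast markers (849, 214 and 668), neutrophil markers (2167, 1863 and 1936) and epithelial markers (4650, 4058 and 4149). The epithelial sum was higher in saline (6930, 6679 and 5784), although 3 of the 6 epithelial markers were called higher after bleomycin and 1 lower. That sum therefore does not stand for its markers one by one. In saline 1, 2 and 3 the fibroblast markers summed to 35, 59 and 321. Erythroid markers summed to 57, 122 and 9 in bleomycin 1, 2 and 5 and markers of proliferating cells to 6624, 6833 and 7507.

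The other genes of the same pathways, taken from lists of electron carriers, assembly factors and regulators, also gave few calls. Of all tested genes 13.7% were called. Most of these lists are short, and at that share 0 calls in a short list says little. Of the 4 subunits of complex II, the succinate dehydrogenase that feeds electrons to ubiquinone, 0 were called, with values from -0.03 (Sdha) to 0.28 (Sdhb, adjusted p 0.279 by limma), and Sdhd at 0.07 (adjusted p 0.821 by limma). Among 12 genes of cytochrome c and ubiquinone synthesis 0 were called and 9 were negative, and Coq8a (0.34) and Coq5 (-0.26), both of ubiquinone synthesis, had the smallest p-values (adjusted p 0.176 and 0.19 by limma). Cycs, cytochrome c itself, had 1427, 1822 and 1973 normalized read counts in saline and 1710, 1225 and 1322 in bleomycin 1, 2 and 5 (log2 fold change -0.30, SE 0.17, adjusted p 0.336 by limma).

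Assembly factors outside the Nduf symbols gave 0 calls in 7 genes for complex I, 6 for complex III, 18 for complex IV and 5 for the ATP synthase. The share over all tested genes was 13.7%. Acad9, which works with Ndufaf1 in building complex I, had 424, 441 and 409 normalized read counts in saline and 317, 329 and 339 in bleomycin 1, 2 and 5. Its groups did not overlap and bleomycin 1 did not stand apart, with a log2 fold change of -0.37 (SE 0.14) and an adjusted p of 0.12 by limma. Ecsit, of the same assembly complex, had -0.40 (SE 0.17, adjusted p 0.169 by limma). The complex III assembly factors Uqcc2 and Bcs1l had 0.47 and -0.34 (adjusted p 0.25 and 0.258 by limma), and Cox19 and Taco1, which serve complex IV, -0.21 and 0.35 (adjusted p 0.435 and 0.443 by limma). For the ATP synthase Atpaf2 and Tmem70 had -0.10 and -0.09 (adjusted p 0.772 and 0.79 by limma). Among 7 carriers of adenine nucleotides and phosphate 0 were called, and Slc25a5, an ADP/ATP exchanger, and Vdac1, a pore of the outer membrane, had -0.31 and -0.22 (adjusted p 0.195 and 0.219 by limma).

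Of 13 tested regulators of mitochondrial gene expression 0 were called, where 13.7% of all tested genes were. Nrf1, named above for its sequence, had 793, 987 and 768 normalized read counts in saline and 712, 665 and 644 in bleomycin 1, 2 and 5, with groups that did not overlap (log2 fold change -0.33, SE 0.14, adjusted p 0.185 by limma). Yy1 had 0.27 (SE 0.12, adjusted p 0.207 by limma). Tfam, which packages and transcribes mitochondrial DNA, and Gabpa, an ETS factor, had -0.07 and -0.10 (adjusted p 0.832 and 0.73 by limma), and Ppargc1a, a coactivator of mitochondrial growth, was below the filter. Mitochondrial ribosomal proteins gave the sole calls among these lists, 0 higher and 2 lower of 76: Mrps5 (log2 fold change -0.53, SE 0.13, adjusted p 0.03 by limma) and Mrpl38 (-0.68, SE 0.19, adjusted p 0.047 by limma). That share lies below the 3.9% of all tested genes called lower and moved with single libraries: the count was 0 without saline 2, saline 3, bleomycin 2 or bleomycin 5, and 5 without bleomycin 1.

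Each library was left out in turn. Bleomycin 1, which had the highest median of these genes, is singled out here because of their own values. Removing the highest bleomycin library sets the direction towards lower values, so the calls that follow are a description only. Leaving out bleomycin 1 changed the count. Then 3 of the 85 genes were called lower and 0 higher, Ndufv1 (log2 fold change -0.50, adjusted p 0.026 by limma), Uqcrfs1 (-0.49, adjusted p 0.043 by limma) and Cox6b2 (-0.82, adjusted p 0.025 by limma), where 12.9% of all genes were called, 8.46% higher and 4.43% lower. Over all alternative fits the adjusted p of these 3 genes ranged from 0.026 to 0.882, 0.043 to 0.971 and 0.025 to 0.811. Without bleomycin 1 the median over the 85 genes was -0.18, with 79 negative, and it was 0.11 with 24 negative without saline 3. With each library instead scaled to the median of the 85 genes, which sets the common movement to 0, none of the 85 was called, where 6.62% of all genes were, 5.91% higher and 0.71% lower. On that scale Uqcrc2, Atp5b and Ndufa10 had log2 fold changes of -0.28, -0.26 and -0.20 with adjusted p-values of 0.732, 0.651 and 0.836 by limma, and Ndufa4 -0.45 with 0.265.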

How the data were processed

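RNA sequencing was measured in 3 saline and 3 bleomycin libraries. The deposited values are a normalized signal: the submitters' processing notes name STAR 2.5.2b, HTSeq 0.6.0, bcl2fastq 2.18.0.12, DESeq2 and the build mm10. What each did, which annotation was used and whether counting used strand is not stated there. In each library 100% of the values were whole multiples (within 0.05 of a read) of the value of 1 read, so each library's read counts had been divided by a single factor. Recovered totals were 27654799 to 37147983 reads, the lowest of the 85 genes in any library had 17 reads, and 3 reads correspond to a value of 2.59 to 3.3.

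Symbols and positions came from GENCODE M21 (22884 of 22962 identifiers matched) and promoter sequences from RefSeq. The test covered the 13512 genes that reached 10 in 3 or more libraries. It was limma 3.58.1 (R 4.3.3), applied to log2(value + 1), two-sided with an intensity trend, with Benjamini-Hochberg adjustment over all of them and a threshold of 0.05. A fold change on this scale understates that of low genes. Other settings were TMM, quantile normalization, a minimum of 50, no filter, pseudocounts of 5 and 0.5, no trend, edgeR 4.0.16 and DESeq2 1.42.0 on the recovered reads, a replicate block, an exon length correction (loess, span 0.3) and leaving out each library. In simulated 3 against 3 data of 13057 genes 55.7% of genes changed 2-fold were called and 88.3% of those changed 4-fold, and 4.86% of the calls were false. The simulation drew each gene independently and changed few genes, over all expression levels, so these shares are not those of the 85 genes. Most differences of the 85 genes were far smaller than 2-fold.

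Exons of 31 of the 85 genes overlap another gene, 28 of them on the opposite strand, and their values are uncertain. Of 11 pseudogenes with such symbols, 0 reached the filter.

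The genes and lists were chosen with earlier results of these data known. Named genes were those with an unadjusted p under 0.05, the 2 lowest and 2 highest fold changes of each complex, isoform sets, Ndufv1, Ndufs1, Uqcrfs1, Cyc1, Atp5a1 and Atp5b, genes called when a library was left out, and the 2 smallest p-values of each pathway list. For lists of cell type markers only counts and summed values are given. Other genes were named with their values in view (genes printed for a sequence, Atp5k, Cycs, Sdha, Siglecf, Tfam, Gabpa and the mitochondrial genes). Also chosen after the data were seen were the scaling to the chain median, the removal of kinases and paralogs from the cytosolic ribosome list, the restriction of the c-ring shares to Atp5g2 and Atp5g3 (the annotated length of Atp5g1 is ambiguous), the 3 promoter spellings and the sequences printed. Genes not named in the text enter its counts and medians, and 1 result is not reported here.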

Additional observations from a re-analysis of the deposited data

How the results depend on the processing

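Over all tested genes the count called higher was 1319 and called lower 527. Leaving out 1 library gave 502 to 1173 higher and 162 to 576 lower, scaling each library to its chain median 799 and 96, and the replicate block 953 and 194. The libraries of a group share no more than a number (correlations of deviations -0.20 for replicate 1 and 0.02 for replicate 2), and only these 2 numbers occur in both groups. The block called 0 of the 85 genes and gave a median log2 fold change of 0.20. The 85 genes called lower were 0, with DESeq2 1, with the length correction 1 and without 1 library 0 to 3 (3 without bleomycin 1), and 0 were called higher in any fit. Medians per complex lay between -0.21 and 0.24 over all fits.

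Values near 0 changed sign without passing the test. With the replicate block Atp5g1 had 0.12, Atp5g2 0.16, Cox5b 0.050, Cox6a1 0.16, Cox6b1 0.20, Cox7a1 0.20, Cox7a2 0.20 and Cyc1 0.12. With the length correction Cox6a2 had 0.0023. With the chain median scaling Atp5g2 had 0.0094, Cox6a2 0.037, Cox6b1 0.020 and Cox7a2 0.035. Without 1 library the values ranged from -0.10 to 0.38 for Atp5e, -0.28 to 0.039 for Atp5g1, -0.22 to 0.072 for Atp5g2, -0.10 to 0.28 for Cox4i1, -0.22 to 0.18 for Cox5a, -0.26 to 0.043 for Cox5b, -0.27 to 0.071 for Cox6a1, -0.25 to 0.33 for Cox6a2, -0.24 to 0.15 for Cox6b1, -0.0044 to 0.38 for Cox6c, -0.68 to 0.057 for Cox7a1, -0.20 to 0.12 for Cox7a2, -0.068 to 0.18 for Cox7a2l, -0.032 to 0.19 for Cox8a, -0.18 to 0.027 for Cyc1, -0.13 to 0.23 for Uqcr11 and -0.13 to 0.27 for Uqcrq. The causes were not tested.

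Leaving out saline 1 and bleomycin 1 together was also tried after the data were seen and is not reported, because both were picked from the values of these genes and removing the lowest saline and the highest bleomycin library sets the direction. Depth limits Cox6a2, with 17 reads in its lowest library, and Cox4i2, below the filter.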
